A study of Rattus norvegicus with 14 samples.

Results

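Fetal testes from litters exposed to 300 mg/kg/day of dicyclohexyl phthalate (DCHP) were set against those from litters exposed to 100 mg/kg/day, over every gene that passed a filter on low counts. The 6 libraries, 3 litters at each dose, were picked from 14 by the dose in the labels, and no vehicle litter entered the difference. The comparison asks what separates the lowest dose of the study from the next one. Of 18174 genes in the table, 12719 were tested.

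DCHP is a plasticizer of the phthalate ester class. Harlan Sprague Dawley dams received it by gavage in corn oil, or corn oil alone from gestational day 14 to gestational day 18. Male fetuses were taken on day 18, and the testes of a litter were pooled after some had been set aside for hormone measurement, so each library stands for 1 dam and her sons and carries no information on single fetuses. The other groups were 3 vehicle litters, 3 litters at 600 mg/kg/day and 2 litters at 900 mg/kg/day. They entered the count filter, the scaling and the estimate of the spread between litters. They were also used where a value is given by dose and where steps or doses other than these 2 are compared. RNA was read by TempO-Seq, a targeted assay that ligates neighbouring detector probes on a transcript and sequences the joined pair. Levels are given as CPM, counts relative to the scaled library total, and differences as the log2 level at 300 minus that at 100 mg/kg/day, ± standard error. Probes differ in efficiency, so levels are compared between litters and not between genes.

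Fetal Leydig cells of the rat testis make testosterone from cholesterol late in gestation. StAR carries cholesterol into the mitochondrion, CYP11A1 with its electron donors ferredoxin and ferredoxin reductase cleaves the side chain, and HSD3B, CYP17A1 and HSD17B enzymes complete the hormone. The cholesterol is taken up from lipoproteins through SR-B1 or built from acetyl-CoA through the mevalonate and sterol pathway, whose genes are controlled together by the SREBP factors. Some phthalate esters lower transcripts of this system in the fetal rat testis.

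The 6 libraries held 6764048 to 9807572 estimated counts, and the log2 CPM of any pair of the 300 mg/kg/day litters correlated across genes at 0.979 to 0.983. The 100 mg/kg/day litters were less alike, at 0.931 to 0.973. On the first principal component of the 6 libraries, which held 48.6% of the variance, 100 mg/kg/day replicate 1 lay at -73.2 and replicate 2 at 30.6, while the other 4 libraries lay between -4.57 and 16.8. The widest gap in the comparison was thus between litters of the same dose. Replicate 1 stood apart at one end and replicate 2 at the other, so results that depend on either are given with and without it. Markers of the tissue were present in all 6 libraries: the Sertoli cell gene Sox9 was at 289 to 362 CPM, the germ cell gene Ddx4 at 514 to 675 CPM and the Leydig cell hormone gene Insl3 at 1485 to 3071 CPM.

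No gene passed. By edgeR's quasi-likelihood test 0 of 12719 genes (0.0%) had an adjusted p under 0.05, and every adjusted p was 0.999 or above. DESeq2 also called 0. At an unadjusted p under 0.05 edgeR listed 312 genes (2.45%), of which 173 (1.36%) lay lower and 139 (1.09%) higher at 300 mg/kg/day, and DESeq2 listed 326. With libraries scaled by their totals alone the split was 133 lower and 181 higher. The 95% interval of a gene, not adjusted for the number of genes, reached a median of 0.551 log2 on either side of its estimate. Every difference below is therefore a description of these 6 litters, with an unadjusted p from edgeR, and none was called.

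**Figure D1:**
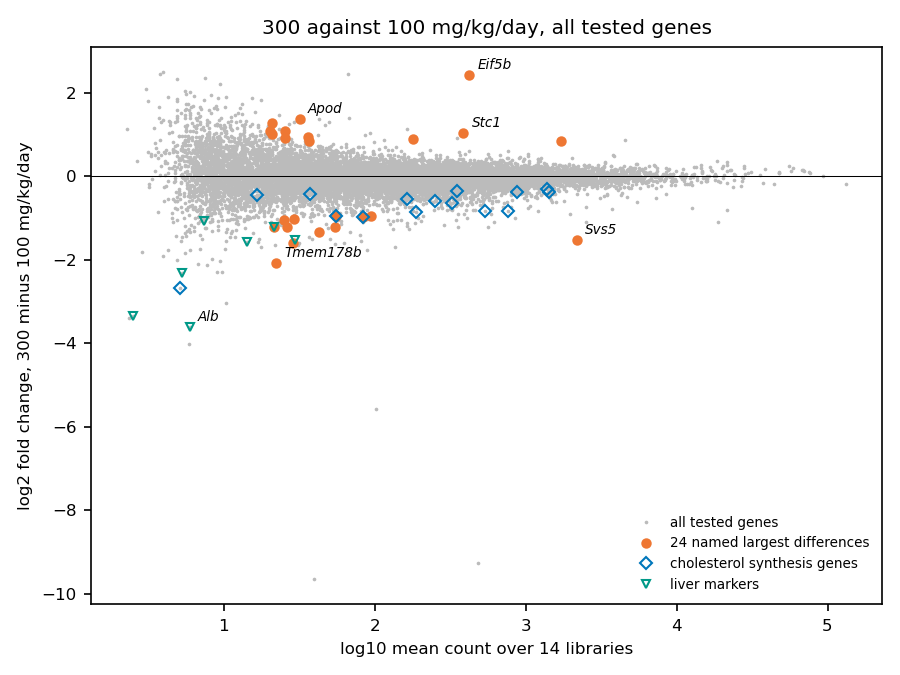
Each dot is 1 of 12719 tested genes, with log10 of the mean count over 14 libraries on the x axis and the log2 fold change, 300 minus 100 mg/kg/day, on the y axis. Orange points are the 12 largest differences in each direction chosen by rule, diamonds are cholesterol synthesis genes and triangles are liver markers. The diamonds all lie below 0, and AABR07009715.1 is among the lowest dots, at -9.26.

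AABR07009715.1, an identifier with no gene name that was singled out after its values were seen, is one of the widest differences. It was at 202, 129 and 0.0 CPM in the 100 mg/kg/day litters and at 0.107, 0.368 and 0.0 CPM at 300 mg/kg/day. Replicate 3 at 100 mg/kg/day therefore did not differ from the higher dose, and the groups overlapped.

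The cholesterol synthesis genes lay lower at 300 mg/kg/day as a group. Of 20 symbols 15 were in the table, all 15 were tested, and all 15 had a negative log2 fold change, against 52.8% of all tested genes. In 9 of them every 300 mg/kg/day litter lay below every 100 mg/kg/day litter, against 3.36% of all genes, and 10 had an unadjusted p under 0.05 in that direction, against 1.36%. Their median difference was -0.60, while the median over all genes was -0.02. Genes of 1 pathway vary together, so these counts are not independent observations. In pooled tissue, fewer cells of a type and less RNA per cell cannot be told apart.

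Early steps build isoprenoid units. Acat2, which joins acetyl-CoA units into acetoacetyl-CoA, was at 103, 67.5 and 56.4 CPM at 100 mg/kg/day and at 44.4, 39.8 and 41.9 CPM at 300 mg/kg/day (log2 difference -0.85 ± 0.22, unadjusted p = 0.00178). The groups did not overlap, and replicate 1 was the highest litter at the lower dose. Mvd, mevalonate diphosphate decarboxylase, was at 46.1, 22.2 and 18.1 CPM and then at 17.6, 14.98 and 14.6 CPM (-0.87 ± 0.32, unadjusted p = 0.018). Here too replicate 1 stood above its group, the other litters at 100 mg/kg/day lying close above those at 300 mg/kg/day. Without that litter the difference in Acat2 was -0.56 and in Mvd -0.35. Idi1 (isopentenyl-diphosphate isomerase, chromosome 17, 61629594 to 61637358, minus strand, rn7) was at 44.9, 51.9 and 43.2 CPM and then at 29.7, 31.6 and 28.5 CPM (-0.64 ± 0.18, unadjusted p = 0.00403). Its litters formed separate, narrow groups, and leaving out any 1 litter moved the difference only between -0.69 and -0.56.

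In Mvk and Hmgcs1 the litters of both doses overlapped. Mvk, mevalonate kinase, had a difference of -0.60 ± 0.28 (unadjusted p = 0.0534) that came to -0.09 without 100 mg/kg/day replicate 1. Hmgcs1, which makes HMG-CoA, was sparsely read and had a difference of -0.45 ± 0.44 (unadjusted p = 0.323).

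Of the enzymes that turn farnesyl units into sterol, Fdft1 and Sqle lay in narrow groups and Lss in wider ones. Fdft1, squalene synthase, was at 184, 182 and 180.0 CPM at 100 mg/kg/day and at 150.3, 139 and 148 CPM at 300 mg/kg/day (-0.32 ± 0.10, unadjusted p = 0.0063). Sqle, squalene epoxidase, was at 171, 197 and 186 CPM and then at 136, 146 and 145 CPM (-0.37 ± 0.11, unadjusted p = 0.00362). In both genes the step was small but wider than the spread within either dose. Lss (lanosterol synthase, chromosome 20, 12092774 to 12118763, minus strand, rn7) was at 13.8, 9.90 and 11.0 CPM and then at 7.84, 5.53 and 4.20 CPM (-0.97 ± 0.25, unadjusted p = 0.00193). All litters were again apart, and the difference ranged from -1.23 to -0.79 as each litter was left out.

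In the later sterol steps, Tm7sf2 (a sterol C14 reductase, chromosome 1, 203355931 to 203360271, minus strand, rn7) was at 8.88, 7.75 and 9.08 CPM and then at 4.94, 4.91 and 3.30 CPM (-0.96 ± 0.29, unadjusted p = 0.0058). Dhcr7, which makes cholesterol from 7-dehydrocholesterol, was at 19.9, 23.1 and 25.2 CPM and then at 14.9, 16.8 and 15.01 CPM (-0.54 ± 0.14, unadjusted p = 0.00216). In both genes all litters at the lower dose were above all at the higher. As each litter was left out, the difference ranged from -1.04 to -0.80 in Tm7sf2 and from -0.63 to -0.46 in Dhcr7. Hsd17b7, a 3-ketosteroid reductase of the pathway, was at 54.6, 40.4 and 42.7 CPM and then at 38.04, 35.2 and 34.2 CPM (-0.36 ± 0.15, unadjusted p = 0.0342). Cyp51, lanosterol demethylase, was at 236, 78.9 and 71.6 CPM and then at 64.8, 64.6 and 86.6 CPM. Its difference of -0.84 ± 0.36 (unadjusted p = 0.0378) belonged almost wholly to replicate 1 and was -0.06 without that litter. Msmo1, sterol methyl oxidase, differed by -0.43 ± 0.26 with overlapping groups.

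**Figure D2:**
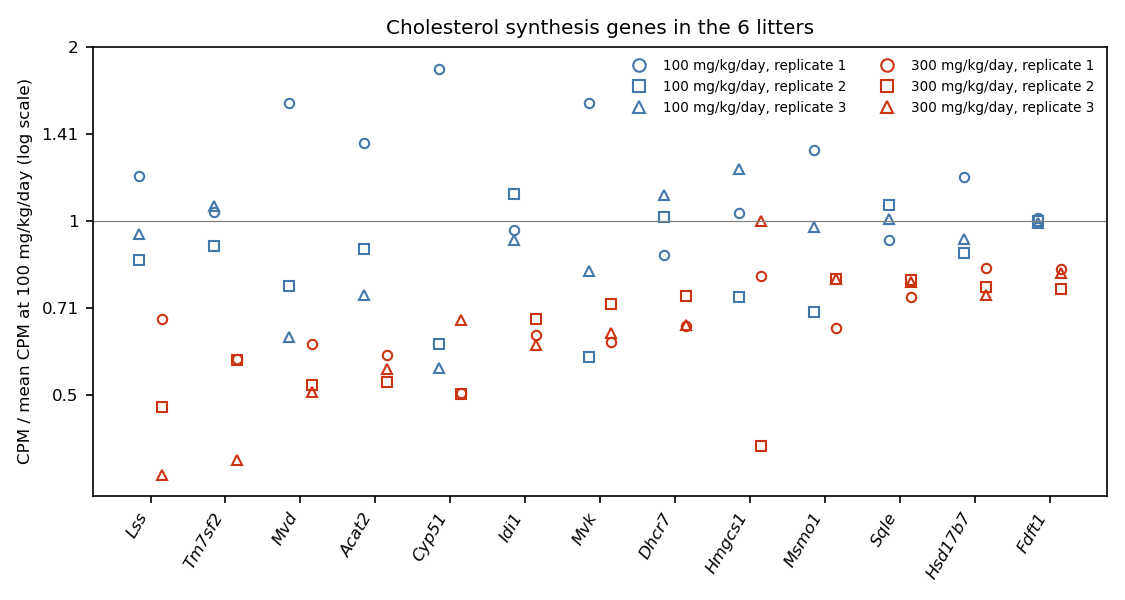
CPM of 13 cholesterol synthesis genes in each of the 6 litters, divided by the gene's mean at 100 mg/kg/day, on a log scale, with blue symbols for 100 mg/kg/day, red for 300 mg/kg/day and 1 symbol shape per replicate. Red symbols lie below blue ones in Lss, Tm7sf2, Mvd, Acat2, Idi1, Dhcr7, Sqle, Hsd17b7 and Fdft1, while the blue circle of replicate 1 lifts Cyp51, Mvk and Mvd.

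Leaving out 100 mg/kg/day replicate 1 gave 14 of 14 members lower and 8 with an unadjusted p under 0.05. One sparsely read member then failed the count filter, and the median difference was -0.43. Leaving out 100 mg/kg/day replicate 2 gave 15 lower and 13 with an unadjusted p under 0.05, with a median of -0.63. The direction of the group thus did not rest on either litter that stood apart, while its size was smaller without replicate 1. The step from vehicle to 100 mg/kg/day had a median of -0.26 over these genes, and that from 300 to 600 mg/kg/day a median of -0.17. Both steps share litters with the comparison and are set beside it only as values.

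Promoters are shown for 4 of these genes whose litters did not overlap, 3 with and 1 without a CCAAT box, the letters bound by NF-Y, a factor known to act with SREBP on sterol genes. The sequences come from RefSeq on the build GRCr8, not rn7, and 11 of 15 tested members had one. Each stretch is the 120 bases before the annotated start, 5′ to 3′ on the gene's strand, with CCAAT or its reverse complement ATTGG in capitals. Idi1 is at chr17:66547525-66547644 (minus strand), Lss at chr20:12118231-12118350 (minus strand), Tm7sf2 at chr1:212789542-212789661 (minus strand) and Dhcr7 at chr1:208444314-208444433 (plus strand).
Idi1: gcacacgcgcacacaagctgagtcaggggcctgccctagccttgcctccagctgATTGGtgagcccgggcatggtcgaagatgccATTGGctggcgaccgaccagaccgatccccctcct
Lss: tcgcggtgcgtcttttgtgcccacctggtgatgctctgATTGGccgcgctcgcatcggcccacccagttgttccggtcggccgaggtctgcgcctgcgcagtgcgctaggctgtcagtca
Tm7sf2: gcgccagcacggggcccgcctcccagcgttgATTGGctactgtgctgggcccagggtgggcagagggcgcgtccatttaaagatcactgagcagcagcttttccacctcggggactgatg
Dhcr7: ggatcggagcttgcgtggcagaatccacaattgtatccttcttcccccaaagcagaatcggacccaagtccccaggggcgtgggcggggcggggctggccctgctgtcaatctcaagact

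Idi1 held 2 boxes in this stretch and Lss and Tm7sf2 held 1 each, all in the reverse orientation, and Dhcr7 held none although its litters were apart as well. In the full window of 300 bases, 250 before to 50 after the start, CCAAT was found on either strand in 8 of 11 cholesterol synthesis promoters (72.7%) and in 3 of 10 testosterone synthesis promoters (30.0%). The share was 36.6% over 10336 promoters of tested genes and 37.5% over all 33469. The letters TCACNCCAC, a form of the sterol regulatory element, were in 0 of 11 and in 1.1% of promoters of tested genes. CAAGGTCA, a motif bound by NR5A1, was in 0 of 10 testosterone synthesis promoters and in 0.929% of those of tested genes. None of the 3 motifs contains another, although their ends can share letters.

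Sterol supply from outside the cell and its sensing gave mixed values. Scarb1 (SR-B1, the lipoprotein receptor that delivers cholesterol to steroid-making cells, chromosome 12, 31296156 to 31362648, plus strand, rn7) was at 135, 104 and 72.5 CPM at 100 mg/kg/day and at 67.6, 58.5 and 60.3 CPM at 300 mg/kg/day (-0.74 ± 0.22, unadjusted p = 0.00492). The groups did not overlap, although replicate 3 at the lower dose came near the higher dose. Stard4, a cytosolic sterol carrier, was at 147, 133 and 133 CPM and then at 114, 109 and 113 CPM (-0.30 ± 0.12, unadjusted p = 0.0248). These were the 2 of 14 tested uptake and transport genes that lay lower with an unadjusted p under 0.05, against 1.36% of all genes, and 10 of 14 lay lower, against 52.8%. Their median was -0.13, but -0.0026 without 100 mg/kg/day replicate 1.

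Insig1, which holds SREBP in the endoplasmic reticulum and is itself an SREBP target, was at 325, 547 and 470.3 CPM and then at 326, 304 and 328 CPM (-0.49 ± 0.24, unadjusted p = 0.0619). Replicate 1 alone of the lower dose lay within the range of the higher dose. Srebf2, which encodes the main SREBP of sterol genes, had a difference of 0.04 ± 0.15, with a 95% interval from -0.27 to 0.36. The 8 tested sterol sensing genes had a median of 0.03, and 3 lay lower, against 52.8% of all genes. That median turned to -0.12 without 100 mg/kg/day replicate 2, and dropping litter 1 or 3 of 300 mg/kg/day turned it to -0.03 or -0.01.

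Among 10 tested fatty acid synthesis genes 8 lay lower, against 52.8% of all genes, with a median of -0.35. Acss2 (acetyl-CoA synthetase of the cytosol, chromosome 3, 144004336 to 144059676, plus strand, rn7) had the smallest p of all 12719 genes. It was at 6.79, 6.35 and 6.83 CPM at 100 mg/kg/day and at 3.01, 2.701 and 2.10 CPM at 300 mg/kg/day (-1.34 ± 0.24, unadjusted p = 0.000103, adjusted p = 0.999). Its vehicle litters were at 6.75, 8.06 and 5.94 CPM, so the litters at 100 mg/kg/day lay within the range of vehicle. Fasn, fatty acid synthase, was at 3.40, 2.92 and 2.65 CPM and then at 1.504, 2.33 and 2.10 CPM (-0.60 ± 0.33, unadjusted p = 0.0901), again without overlap. Acly, which supplies cytosolic acetyl-CoA from citrate, differed by -0.45 ± 0.21 (unadjusted p = 0.0546) and by -0.13 without 100 mg/kg/day replicate 1.

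The testosterone synthesis genes split. Of 13 tested, 12 had a negative difference, against 52.8% of all genes, with a median of -0.44. An unadjusted p under 0.05 was found for 2, against 1.36% of all genes in that direction. The same 2 had groups that did not overlap, against 3.36%. Those were Fdx1 and Star. Fdx1 (ferredoxin 1, chromosome 8, 52268536 to 52287415, minus strand, rn7) was at 1645, 2342 and 1421 CPM at 100 mg/kg/day and at 1143, 1038 and 976 CPM at 300 mg/kg/day (-0.78 ± 0.20, unadjusted p = 0.00191). Every litter of the higher dose was below every litter of the lower one, and replicate 2 was the highest. Star (chromosome 16, 66264807 to 66271673, minus strand, rn7) was at 171, 115 and 90.8 CPM and then at 80.6, 83.3 and 64.8 CPM (-0.72 ± 0.25, unadjusted p = 0.0121). Replicate 1 was here the highest, and without it the difference was -0.43, against -0.54 for Fdx1 without replicate 2.

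Cyp11a1, whose enzyme cleaves the cholesterol side chain, was at 399, 733 and 607 CPM and then at 474, 424 and 377 CPM (-0.45 ± 0.26, unadjusted p = 0.106). Cyp17a1, the 17-hydroxylase, was at 102, 299 and 189.8 CPM and then at 169, 103 and 127 CPM (-0.57 ± 0.39, unadjusted p = 0.163). In both genes replicate 1 at 100 mg/kg/day lay among or below the 300 mg/kg/day litters while replicate 2 was highest, so the groups overlapped. Hsd17b3, which makes testosterone from androstenedione, was at 251, 327 and 269 CPM and then at 275, 288 and 281 CPM. Its difference was -0.01 ± 0.11, with a 95% interval from -0.24 to 0.23, and its sign turned under 4 alternatives. Hsd3b3, a 3-beta-hydroxysteroid dehydrogenase, had a difference of -0.13 ± 0.17 and an interval from -0.49 to 0.24. Fdxr, ferredoxin reductase, differed by -0.40 ± 0.25, and by 0.03 without 100 mg/kg/day replicate 1. Tspo, a mitochondrial membrane protein once proposed to import cholesterol, was the member with a positive difference, 0.22 ± 0.23.

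The count of lower members was 9 without 100 mg/kg/day replicate 1 and 8 without replicate 2. The median was -0.23 and -0.24, respectively. Both litters that stood apart therefore bore on the size of this group's difference, and more so than on that of the cholesterol synthesis genes.

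**Figure D3:**
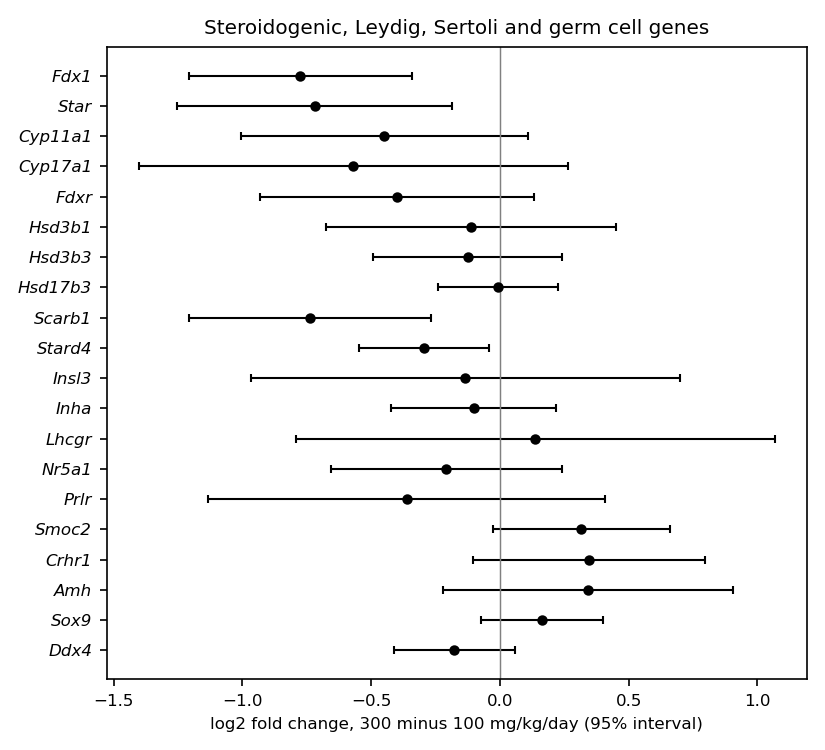
Points are log2 fold changes, 300 minus 100 mg/kg/day, and bars are 95% intervals from edgeR's fit. The intervals of Fdx1, Star, Scarb1 and Stard4 lie below 0, those of the other 16 genes span it, and that of Hsd17b3 runs from -0.24 to 0.23.

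The other fetal Leydig cell genes were less uniform than the sterol genes. Of 11 tested, 8 lay lower, against 52.8% of all genes, with a median of -0.19. An unadjusted p under 0.05 was found for 0, against 2.45% of all genes, and so few members say little on that share. Without 100 mg/kg/day replicate 1 the median turned to 0.10, and dropping replicate 2 gave -0.38. Insl3, the hormone that guides the testis's descent, was at 1485, 3071 and 2342 CPM and then at 2401, 1600.0 and 2285 CPM (-0.13 ± 0.39, 95% interval from -0.97 to 0.70). Its litters overlapped wholly, and the interval is too wide to show whether it differed. Inha, the inhibin alpha subunit, was at 116, 143 and 128 CPM and then at 126, 116 and 119 CPM (-0.10 ± 0.15, 95% interval from -0.42 to 0.22).

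Lhcgr, the luteinizing hormone receptor, differed by 0.14 ± 0.43 and Nr5a1, a master regulator of steroidogenic cells, by -0.21 ± 0.21. The sign of both turned when single litters were left out, to -0.15 and 0.10 without 100 mg/kg/day replicate 1. Prlr, the prolactin receptor, differed by -0.36 ± 0.36 and by 0.21 without that litter. Smoc2, a matricellular protein gene, was at 41.4, 38.5 and 42.1 CPM and then at 48.8, 49.4 and 53.9 CPM, without overlap (0.32 ± 0.16, unadjusted p = 0.0687). Crhr1, a receptor of corticotropin-releasing hormone, differed by 0.35 ± 0.21. Smoc2 and Crhr1 lay higher at 300 than at 100 mg/kg/day, opposite to most of their list.

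**Figure D4:**
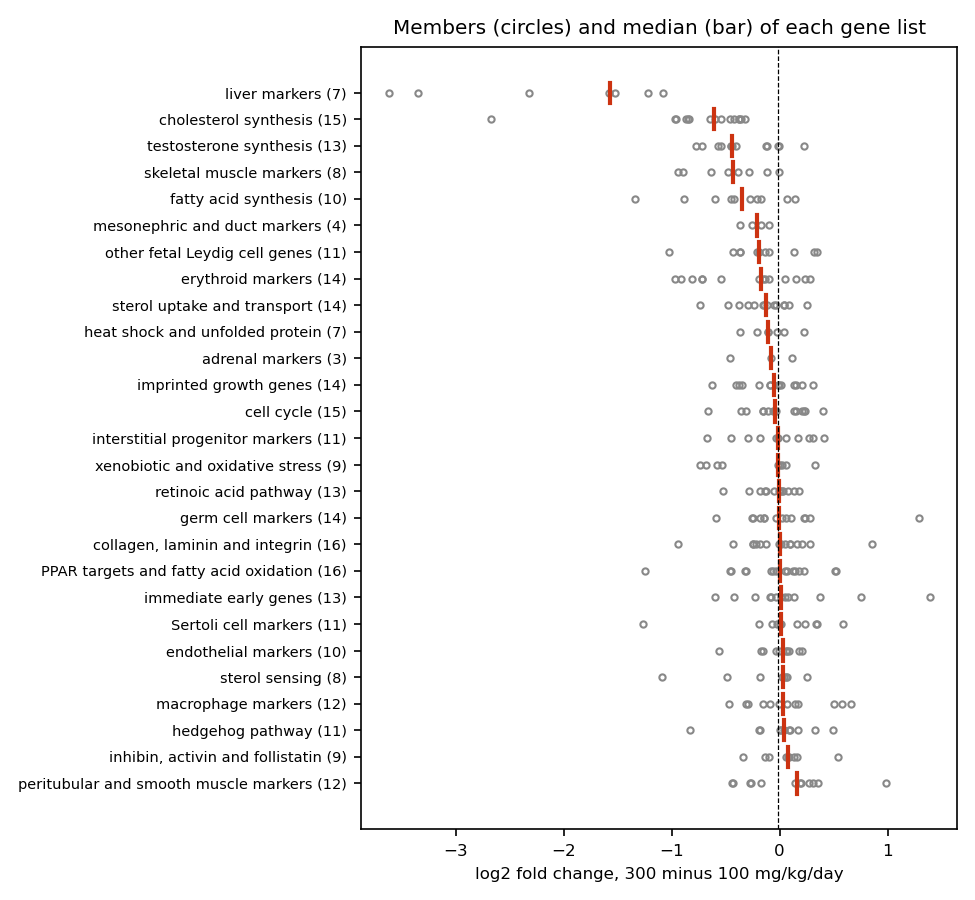
Log2 fold changes, 300 minus 100 mg/kg/day, for members of 27 gene lists (grey circles) with each list's median (red bar) and the median over all genes (dashed line). The number of tested members is in brackets. Liver markers and cholesterol synthesis have the lowest medians, -1.57 and -0.60, and peritubular and smooth muscle markers the highest, 0.16, which turns to -0.02 without 100 mg/kg/day replicate 3.

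The lowest median belonged to liver markers, plasma protein genes that define hepatocytes and that a testis library should hardly hold. All 7 tested members lay lower at 300 mg/kg/day, against 52.8% of all genes, with a median of -1.57. Of these, 5 had an unadjusted p under 0.05, against 1.36% of all genes in that direction, and 3 did not overlap, against 3.36%. The median was -2.62 without 300 mg/kg/day replicate 3. Without 100 mg/kg/day replicate 3, 5 members lay lower and 2 had an unadjusted p under 0.05, with a median of -1.17. Without 100 mg/kg/day replicate 2, 5 lay lower and 4 had such a p. The count filter was applied anew in each of these fits, so a member not counted as lower need not lie higher. Alb, Afp, Apoa1, Fga, Fgg and Serpina1 kept their sign in every such fit that tested them. Their summed level was 15.8, 18.5 and 25.0 CPM at 100 mg/kg/day, 5.59, 4.91 and 8.70 CPM at 300 mg/kg/day and 4.08 to 9.73 CPM in the vehicle litters. The 100 mg/kg/day litters were thus high against both neighbouring groups. Alb, serum albumin, was at 0.784, 3.56 and 2.24 CPM and then at 0.215, 0.123 and 0.150 CPM (-3.62 ± 0.79, unadjusted p = 0.000512), with a mean count of 5.93 over all libraries. Fgg, the fibrinogen gamma chain, was at 3.14, 4.44 and 4.90 CPM and then at 1.40, 2.58 and 1.35 CPM (-1.22 ± 0.32, unadjusted p = 0.00227). Serpina3c, a secreted protease inhibitor gene outside the list, was at 0.392, 3.81 and 2.35 CPM and then at 0.322, 0.0 and 0.0 CPM. These are low counts, and only 2 members had a mean count of at least 20. The part of this signal in any other difference was not tested.

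Markers of other tissues also varied between litters of the same dose. Summed erythroid markers were at 39700, 15500 and 22500 CPM at 100 mg/kg/day and at 16800, 23800 and 29800 CPM at 300 mg/kg/day. Replicate 1 of 100 mg/kg/day, which stood apart on the first component, held the most of these transcripts and replicate 2 the least. Replicate 3 of 300 mg/kg/day held the next most and lay at 13.8 on that component. Whether the component follows these transcripts was not tested. Summed skeletal muscle markers were at 54.5, 30.7 and 43.2 CPM and then at 35.4, 28.4 and 41.3 CPM, and all 8 tested members lay lower, against 52.8% of all genes, with a median of -0.43. Dropping litter 1 or 2 of 100 mg/kg/day gave a median of -0.11 or -0.70, and dropping litter 2 of 300 mg/kg/day gave -0.07. Summed markers of the adrenal, which also makes steroids, were at 6.79, 7.37 and 8.26 CPM and then at 7.52, 4.54 and 6.0 CPM. The part of blood, muscle or adrenal RNA in the differences of Star, Fdx1 or the sterol genes was not tested.

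Peritubular and smooth muscle markers had the highest median, 0.16. Of 12 tested members 7 lay higher, against 5999 of 12719 genes. An unadjusted p under 0.05 was found for 2 of those, against 1.09% of all genes in that direction. The median turned to -0.02 without 100 mg/kg/day replicate 3 and was 0.09 without 300 mg/kg/day replicate 1. Acta2, smooth muscle actin, was at 139, 121 and 121 CPM and then at 154, 157 and 175 CPM (0.35 ± 0.15, unadjusted p = 0.0332). Lmod1, leiomodin, was at 1.04, 1.52 and 2.14 CPM and then at 3.33, 3.44 and 2.701 CPM (0.99 ± 0.36, unadjusted p = 0.0165). Neither gene overlapped between doses, against 3.24% of all genes in that direction. In the other direction 1 member of the list, Smtn, lay lower without overlap, against 3.36% of all genes. Smtn was at 3.135, 2.793 and 2.754 CPM and then at 1.827, 1.965 and 2.701 CPM. Mylk, myosin light chain kinase, also lay lower, with overlapping litters, at -0.44 ± 0.26. Its difference came to -0.02 without 100 mg/kg/day replicate 1. Sertoli, germ, interstitial progenitor, endothelial and macrophage markers had medians from -0.02 to 0.03. Amh, the Sertoli cell hormone that regresses the Müllerian ducts, differed by 0.34 ± 0.26, Sox9 by 0.16 ± 0.11 and Ddx4 by -0.18 ± 0.11, all with overlapping litters. Of 11 tested Sertoli markers, 2 lay higher without overlap, Clu and Ptgds, against 3.24% of all genes, and 0 lower without overlap, against 3.36%. Clu was at 22.1, 24.9 and 19.1 CPM and then at 27.2, 31.3 and 25.4 CPM. An unadjusted p under 0.05 was found for 0 of the 11, against 2.45% of all genes.

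The widest differences were named by a rule: 12 in each direction among genes with a mean count of at least 20, an unadjusted p under 0.05 and litters that did not overlap, of 92 that lay lower and 85 that lay higher. Having been chosen on this contrast, their sizes are a description. Svs5 (a seminal vesicle secretory protein gene, chromosome 3, 152996146 to 152997757, plus strand, rn7) was at 337, 445 and 272 CPM at 100 mg/kg/day and at 133, 99.7 and 133 CPM at 300 mg/kg/day (-1.53 ± 0.33, unadjusted p = 0.000437). The lowest litter at 100 mg/kg/day thus still lay far above the highest at 300 mg/kg/day, and the difference ranged from -1.68 to -1.32 as each litter was left out. Arhgef38, a guanine nucleotide exchange factor gene, was at 5.23, 14.0 and 7.04 CPM and then at 4.51, 4.67 and 1.80 CPM (-1.23 ± 0.44, unadjusted p = 0.0151). Its litters were apart by little, and the difference was -0.73 without 100 mg/kg/day replicate 2. Acss2, Fgg, Lss and Tm7sf2, described above, were also among the 12.

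The other 6 had in common that replicate 1 of the lower dose was far the highest. Tmem178b was at 7.18, 2.54 and 2.14 CPM and then at 0.860, 0.860 and 1.05 CPM (-2.08 ± 0.60). Nr2f1, a nuclear receptor gene, was at 11.5, 2.41 and 2.35 CPM and then at 1.504, 2.09 and 1.65 CPM (-1.61 ± 0.62). Without that litter the difference in Tmem178b was -1.33, and those in Nr2f1, Rabepk, Cenpn, St8sia4 and Radil came to between -0.54 and -0.34. In the whole fit they were -1.61, -1.21, -1.04, -1.03 and -0.94.

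Of the genes that lay higher, Stc1 (stanniocalcin 1, a secreted glycoprotein, chromosome 15, 44299621 to 44310265, plus strand, rn7) was at 16.6, 29.0 and 25.9 CPM at 100 mg/kg/day and at 41.8, 51.1 and 53.4 CPM at 300 mg/kg/day (1.03 ± 0.23, unadjusted p = 0.000567). All litters of the higher dose were above all of the lower. Its vehicle litters, at 19.7, 27.9 and 26.5 CPM, overlapped with those at the lower dose. Stc2, its paralog, had a difference of -0.33 ± 0.23 with overlapping litters. Testin, named for a secreted protein of Sertoli cells, was at 1.04, 1.65 and 1.33 CPM and then at 2.04, 3.56 and 3.00 CPM (1.08 ± 0.36, unadjusted p = 0.0106). The lower of these levels already lay above the vehicle litters, at 0.695, 0.299 and 1.03 CPM.

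Apod, apolipoprotein D, a lipid carrier, was at 1.57, 1.91 and 2.35 CPM and then at 6.77, 4.67 and 3.60 CPM (1.36 ± 0.30, unadjusted p = 0.000543). Its vehicle litters were at 4.27, 3.48 and 5.94 CPM, so the 100 mg/kg/day litters were the low ones. Both Eif1a and Eif5b encode translation initiation factors. Eif1a was at 142, 129 and 143 CPM and then at 233, 260.3 and 252 CPM (0.85 ± 0.25, unadjusted p = 0.00478), with vehicle litters at 229, 152 and 259 CPM. Eif5b was at 1.83, 41.8 and 2.14 CPM and then at 82.5, 117 and 41.9 CPM (2.41 ± 0.88, unadjusted p = 0.0165). Its vehicle litters were at 19.4, 40.6 and 36.7 CPM, so replicates 1 and 3 at 100 mg/kg/day were the low ones. Replicate 2 at that dose lay near vehicle and nearly met replicate 3 at 300 mg/kg/day. Without this replicate 2, Eif5b was the one gene to pass, with a difference of 5.32 and an adjusted p of 0.0334. That pass thus rests on the low replicates 1 and 3. The other 7, with differences from 0.83 to 1.27, were Plxdc1, Rhbdl2, Pcdh18, Ntn4, Klf2, Doc2b and Rapgefl1. Klf2, a transcription factor gene induced by shear stress in endothelium, was at 2.74, 2.03 and 1.94 CPM and then at 3.01, 4.91 and 4.65 CPM.

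**Figure D5:**
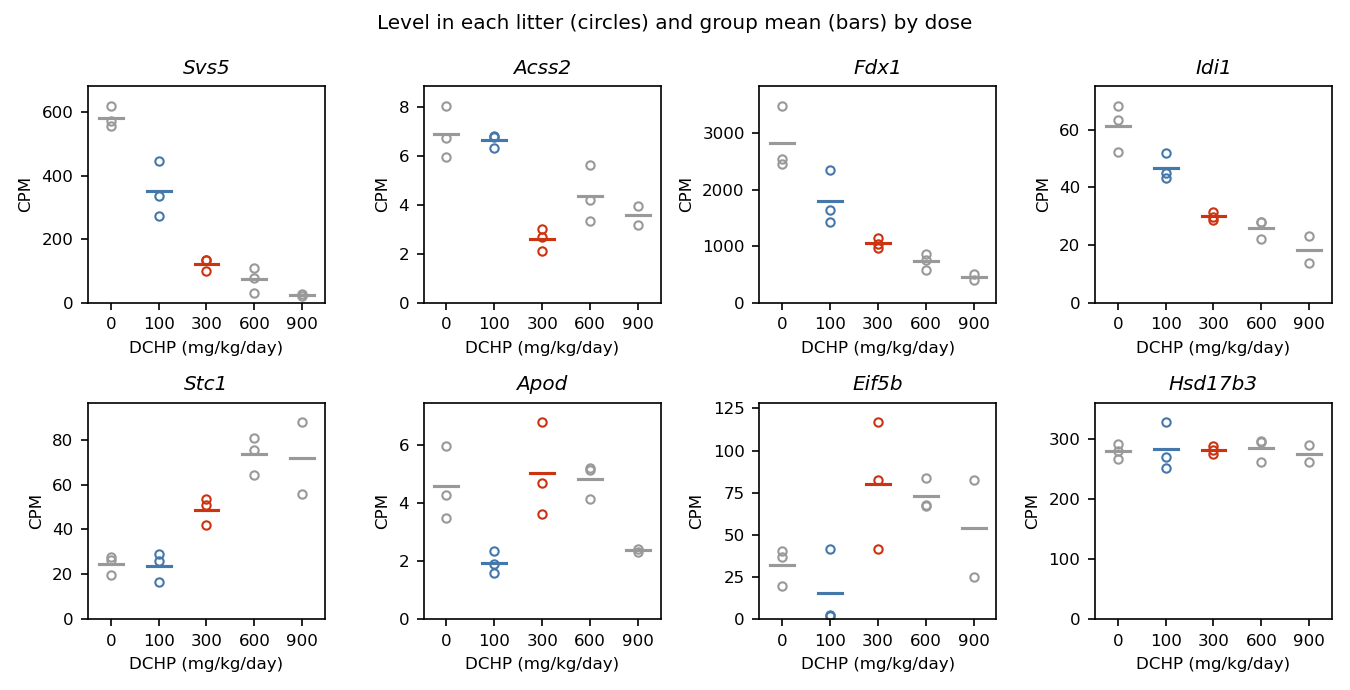
CPM of 8 genes in every litter (circles) with the group mean (bars), by dose in mg/kg/day, with 100 in blue, 300 in red and other doses in grey. Svs5, Fdx1 and Idi1 have lower means at each higher dose. Acss2 and Stc1 depart from vehicle at 300 mg/kg/day, Apod is low at 100 and 900 mg/kg/day, and the Hsd17b3 means lie close together.

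The same genes were read in litters outside the comparison. Against vehicle, 11 of the 12 lower genes were also lower at 600 mg/kg/day, where 53.2% of all genes were, and 6 of 12 were lower at 900 mg/kg/day, where 46.9% were. On the first component of all 14 libraries vehicle replicate 1 lay at -42.6, on the side of 100 mg/kg/day replicate 1 at -65.1. It was the highest vehicle litter in Tmem178b, Nr2f1, Rabepk and Radil, but not in Cenpn and St8sia4. Tmem178b was at 5.16, 1.69 and 1.26 CPM in vehicle and at 1.38, 1.40 and 2.40 CPM at 600 mg/kg/day. These counts were not tested without that litter. Of the 12 higher genes, 8 were also higher at 600 and 8 at 900 mg/kg/day, against 46.8% and 53.1% of all genes. At 600 mg/kg/day against vehicle, where edgeR called 28 genes (0.22%), the adjusted p was 0.00279 for Svs5, with a difference of -2.99, 0.0136 for Stc1, with 1.58, and 0.00521 for Testin, with 3.01. Eif5b, Apod and Eif1a had adjusted p values of 0.95, 0.97 and 0.95 there.

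The cholesterol synthesis genes had a median of -1.02 at 600 and of -1.11 at 900 mg/kg/day against vehicle, with 15 and 14 of 15 lower. At 600 mg/kg/day Idi1 differed from vehicle by -1.23 (edgeR adjusted p = 0.0171), Sqle by -0.81 (0.00626), Fdft1 by -0.67 (0.0147) and Dhcr7 by -1.02 (0.0116). Lss and Tm7sf2 had adjusted p values of 0.128 and 0.106 at that dose. The liver markers had 2 of 7 lower at 600 and 1 of 7 lower at 900 mg/kg/day against vehicle.

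The step from 100 to 300 mg/kg/day was also tested against the other steps of the design. Against the step from 600 to 900 mg/kg/day, which shares no litter with it, edgeR called 0 genes (0.0%), listed 1149 (9.03%) at an unadjusted p under 0.05, and DESeq2 called 3. The unadjusted count depended on single litters. Dropping litter 1, 2 or 3 of 100 mg/kg/day gave 506, 2483 or 1879 genes. Dropping litter 1 of 900 mg/kg/day gave 344, litter 3 of 600 mg/kg/day 642, and litter 1 or 3 of 300 mg/kg/day 624 or 618. The smallest edgeR p was that of Apod, which had a difference of 1.36 in the one step and -1.02 in the other (difference of steps 2.38 ± 0.45, unadjusted p = 0.000147, adjusted p = 0.492). Bloc1s2, a subunit of a lysosome biogenesis complex, followed with steps of 0.32 and -0.64 (adjusted p = 0.492). Mmp13, a collagenase gene, had steps of -0.92 and 5.45, the latter from 600 mg/kg/day litters at 0.0, 0.311 and 0.0 CPM.

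Against the step from vehicle to 100 mg/kg/day, which shares the 100 mg/kg/day litters, edgeR and DESeq2 called 0 genes and edgeR listed 355 (2.79%) at an unadjusted p under 0.05. That count was 683, 661 and 593 without 100 mg/kg/day replicate 1, 2 or 3 and 619 without vehicle replicate 1. Alb had the smallest p, with a step of 3.29 up to 100 mg/kg/day and of -3.62 beyond it (unadjusted p = 6.78e-05, adjusted p = 0.862). For Star the earlier step was -1.15 and the later -0.72, for Scarb1 -0.84 and -0.74, for Fdx1 -0.65 and -0.78, and for Svs5 -0.73 and -1.53. None of these 4 pairs of steps differed at an unadjusted p under 0.05, and with these errors that does not show that the steps were equal.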

How the data were processed

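The deposited table gives estimated counts per Ensembl gene that the authors made from the TempO-Seq reads. The submitters' processing notes name STAR 2.7.8a, Partek, DESeq2 and the build rn7, without roles, and the counting tool is not given in the sources used here. Of the values 83.6% were whole to a tolerance of 1e-09, and every value was rounded for testing. A second deposited table of estimated counts undoes the signal attenuation of 16 genes and served as an alternative. The log2 CPM table the authors deposited was not used. A gene absent from the table was not analysed here, and some single genes are not reported here.

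edgeR 4.0.16 in R 4.3.3 kept 12719 of 18174 genes (filterByExpr on dose groups, 99.9% of counts), scaled by TMM and fitted 1 robust quasi-likelihood model to 14 libraries, with 9 residual degrees of freedom. Tests were two-sided with Benjamini-Hochberg adjustment over all tested genes and a threshold of 0.05. Standard errors and 95% intervals come from that fit. The common biological coefficient of variation was 0.232. CPM use the TMM-scaled totals. Groups that do not overlap are those in which every litter of one dose lies beyond every litter of the other. The litter is the unit of replication, and p-values measure the spread between litters. Replicate numbers follow the order of the labels and pair nothing.

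Named genes are the 12 largest differences in each direction (mean count at least 20, unadjusted p under 0.05, no overlap), from each list the 4 or fewer genes of smallest p, list members with an unadjusted p under 0.05, a fixed panel, genes that passed in any alternative, and up to 6 with the smallest p for each difference of steps. Members and lists were chosen with earlier results of these data known. No set test was run. Alternatives were DESeq2 1.42.0, other scalings and filters, the attenuation-adjusted counts, the 6 libraries alone, no robust dispersion and each litter left out. One more, which left out replicate 1 of both vehicle and 100 mg/kg/day, was chosen after seeing the data. The fit was first tested on simulated data. Promoters are RefSeq sequences on GRCr8, matched by symbol, while gene coordinates are those of the deposited table on rn7.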

Additional observations from a re-analysis of the deposited data

How the results depend on the processing

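For 300 against 100 mg/kg/day, 0 genes passed under every alternative except when replicate 2 of 100 mg/kg/day was left out, where 1 passed (Eif5b), so leaving out single litters gave 0 to 1. The unadjusted count of 312 became 143 with the 6 libraries alone, 693 and 696 when replicate 2 or 3 of 100 mg/kg/day was left out, and 691 when replicate 1 of vehicle and of 100 mg/kg/day were both left out. For the difference from the step between 600 and 900 mg/kg/day, DESeq2 called 3 genes (Bloc1s2, Mmp13 and Apod, adjusted p 0.0301, 0.0301 and 0.0364), 1 gene, Fth1, passed with both replicates 1 left out, and single litters left out gave 0. The difference from the step between vehicle and 100 mg/kg/day stayed at 0 calls in every alternative that was run. Of the single genes named, 10 changed sign, and the cause was not tested. As single litters were left out, Hsd3b1 ranged from -0.233 to 0.0432, Hsd3b3 from -0.245 to 0.0407, Hsd17b3 from -0.0847 to 0.113, Fdxr from -0.607 to 0.0278 and Por from -0.805 to 0.085. Over the same alternatives Insl3 ranged from -0.369 to 0.131, Lhcgr from -0.153 to 0.812, Nr5a1 from -0.377 to 0.0993, Prlr from -0.67 to 0.212 and Srebf2 from -0.0668 to 0.186. With both replicates 1 left out, Fdxr came to 0.0214, Por to 0.0793, Nr5a1 to 0.0927, Prlr to 0.208, Lhcgr to -0.155 and Srebf2 to -0.0725. Hsd17b3 came to 0.0111 with library totals and to 0.00704 with a mean count of at least 20. With that minimum 2 liver markers were tested, and both lay lower. No paired analysis was possible because each library came from a different litter at 1 dose. Replicate numbers are also absent from the labels. With 3 litters a dose the 95% intervals are wide, and genes of few counts are the least certain.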

Other observations

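Single genes of several other groups had litters that did not overlap. Of all tested genes 3.36% lay lower and 3.24% higher in that way. The genes given here were picked as examples from small lists and are no result about those lists. Epcam, an epithelial adhesion gene and the most read of 4 mesonephric and duct markers, was at 96.0, 107 and 98.0 CPM at 100 mg/kg/day and at 90.6, 76.0 and 86.1 CPM at 300 mg/kg/day (-0.25 ± 0.17, unadjusted p = 0.158 by edgeR). All 4 of those markers lay lower, against 52.8% of all genes, with a median of -0.21. The 7 heat shock and unfolded protein genes had a median of -0.10. Of these, 5 lay lower, against 52.8%, and 0 had an unadjusted p under 0.05, against 2.45%. The 14 erythroid markers had a median of -0.17, which ran from -0.48 to 0.26 as single litters were left out. The medians were 0.08 over 9 inhibin, activin and follistatin genes, 0.00464 over 16 collagen, laminin and integrin genes and -0.08 over 3 adrenal markers. Crabp2, a carrier of retinoic acid, was at 576, 685 and 598 CPM at 100 mg/kg/day and at 464, 496 and 567 CPM at 300 mg/kg/day (-0.28 ± 0.11, unadjusted p = 0.0231 by edgeR). Its litters did not overlap, while the 13 tested retinoic acid pathway genes had a median of -0.01. Cdkn1c, an imprinted inhibitor of the cell cycle, was at 9.80, 7.37 and 9.79 CPM and then at 7.20, 7.12 and 6.45 CPM (-0.37 ± 0.18, unadjusted p = 0.0565), again without overlap, and the 14 imprinted growth genes had a median of -0.05. Fosb, an immediate early transcription factor gene, was at 1.83, 2.16 and 3.57 CPM and then at 4.73, 3.93 and 4.20 CPM (0.75 ± 0.31, unadjusted p = 0.0304), in a list of 13 with a median of 0.01. Fosl2, of the same list, went the other way without overlap, at 2.48, 2.79 and 2.65 CPM and then at 1.40, 2.33 and 1.501 CPM. Tcf21, a transcription factor gene of interstitial progenitors, was at 40.5, 34.5 and 39.3 CPM and then at 44.4, 46.0 and 47.7 CPM (0.27 ± 0.12, unadjusted p = 0.043). None of these genes passed over all tested genes.

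Lama1, a laminin chain of basement membranes, differed by 0.86 ± 0.38 with overlapping litters. The hedgehog pathway, PPAR target, xenobiotic response and cell cycle lists held 0 members with an unadjusted p under 0.05, against 2.45% of all genes. Their medians ran from -0.04 to 0.04. Gnaz, a G protein alpha subunit gene, and Spaca1, a sperm acrosome gene, lay higher at 100 mg/kg/day than at vehicle or 300 mg/kg/day. Gnaz was at 20.9, 17.8 and 19.6 CPM there, at 14.7, 13.9 and 13.2 CPM at 300 mg/kg/day and at 12.2, 13.9 and 13.6 CPM in the vehicle litters, and at 18.7 and 16.8 CPM at 900 mg/kg/day. Spaca1 was at 29.9, 23.7 and 22.5 CPM, at 15.5, 18.2 and 15.3 CPM, at 18.0, 13.1 and 16.2 CPM, and at 21.9 and 17.3 CPM in the same order of groups.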
